A study of Homo sapiens with 8 samples.

Results

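Expression of axon guidance genes was examined in 2 human neuroblastoma cell lines in which TRPM7, a cation channel with a kinase domain, had been targeted by RNA interference. Members were taken by gene symbol: every probe named for a semaphorin (SEMA), plexin (PLXN), Eph receptor (EPHA, EPHB), ephrin (EFNA, EFNB) or UNC5 gene, and the neuropilins, Slits, Robos, netrins, DCC and neogenin (NEO1). This gave 72 symbols with 115 probes, of 31426 symbols and 47322 probes on the array. Where a symbol had several probes, the one brightest on average across all arrays stands for it. The rule used no measured difference between groups, but the members were chosen with earlier results of these data known. PLXNA4B is an older symbol of PLXNA4, so that the 72 symbols stand for 71 genes, and UNC50 and UNC5CL came in by their prefix although they are no netrin receptors.

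Growing axons and migrating neural crest cells are steered by these cues. Semaphorins signal through plexins, with neuropilins as coreceptors of the secreted class, Slits signal through Robos, and netrins through DCC, neogenin and UNC5 receptors. Ephrins stay on the cell surface and bind Eph receptor kinases on neighbouring cells, so that both cells can receive a signal. Neuroblastoma arises from the sympathetic branch of the neural crest, and many of these genes act in migration of that lineage.

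The 4 groups, with 2 arrays each, were SH-SY5Y cells with a scrambled shRNA (control) or a TRPM7 shRNA, and SH-EP2 cells with the same 2 constructs. All groups had been stably transduced with lentivirus and selected with puromycin, and 1 TRPM7 shRNA was used on the arrays. SH-SY5Y (neuroblastic) and SH-EP2 (epithelial-like) are both subclones of the SK-N-SH line, and they were cultured in different media, so that line, clone and medium cannot be told apart in a comparison of the lines. Sample preparation and array analysis were both done in duplicate, without a statement that the duplicates were separate cultures. The p-values therefore measure the spread between these arrays, which may be technical. Raw signals had medians of 104.7 to 119.9, and an array detected 40.8% to 44.2% of its probes (detection p under 0.05). The only TRPM7 probe was detected on none of the 8 arrays (detection p 0.0753 to 0.201), so that the knockdown itself cannot be read here. Marker lists set the lines apart: the median log2 signal of 10 noradrenergic markers was 11.06 in SH-SY5Y control cells and 2.94 in SH-EP2 control cells, and that of 10 mesenchymal markers was 6.01 and 11.34. Of the mesenchymal markers 9 were higher in SH-EP2 control cells and 1, VIM, was lower (-0.19 ± 0.07, adjusted p = 0.0356). Epithelial markers were not examined. TH was detected on no array, whereas DBH was detected in SH-SY5Y cells alone.

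Of the 72 symbols, 30 were detected on all 8 arrays, 56 on at least 1 and 16 on none, and each array detected 38 to 45 of them. Among 34 ligands 27 were detected on at least 1 array, as were 28 of 36 receptors. Levels below are log2 normalized signals, in which a step of 1 is a doubling, and differences are differences of group means ± the standard error of the limma fit. A gene was called at an adjusted p under 0.05 over all 47322 probes. Groups of 2 arrays can lie apart without a measured level. The control arrays of the lines did not overlap for DCC, EFNA2 and EPHA7, which no array detected. Lack of overlap is therefore given as a description, and its share over all symbols was not counted. It also occurred in knockdown comparisons without a call, such as NEO1 and EFNB2 in SH-SY5Y cells and SEMA3C and EFNB3 in SH-EP2 cells. As the arrays measured RNA from whole cultures, a lower level in each cell and fewer expressing cells cannot be told apart.

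**Figure D1:**
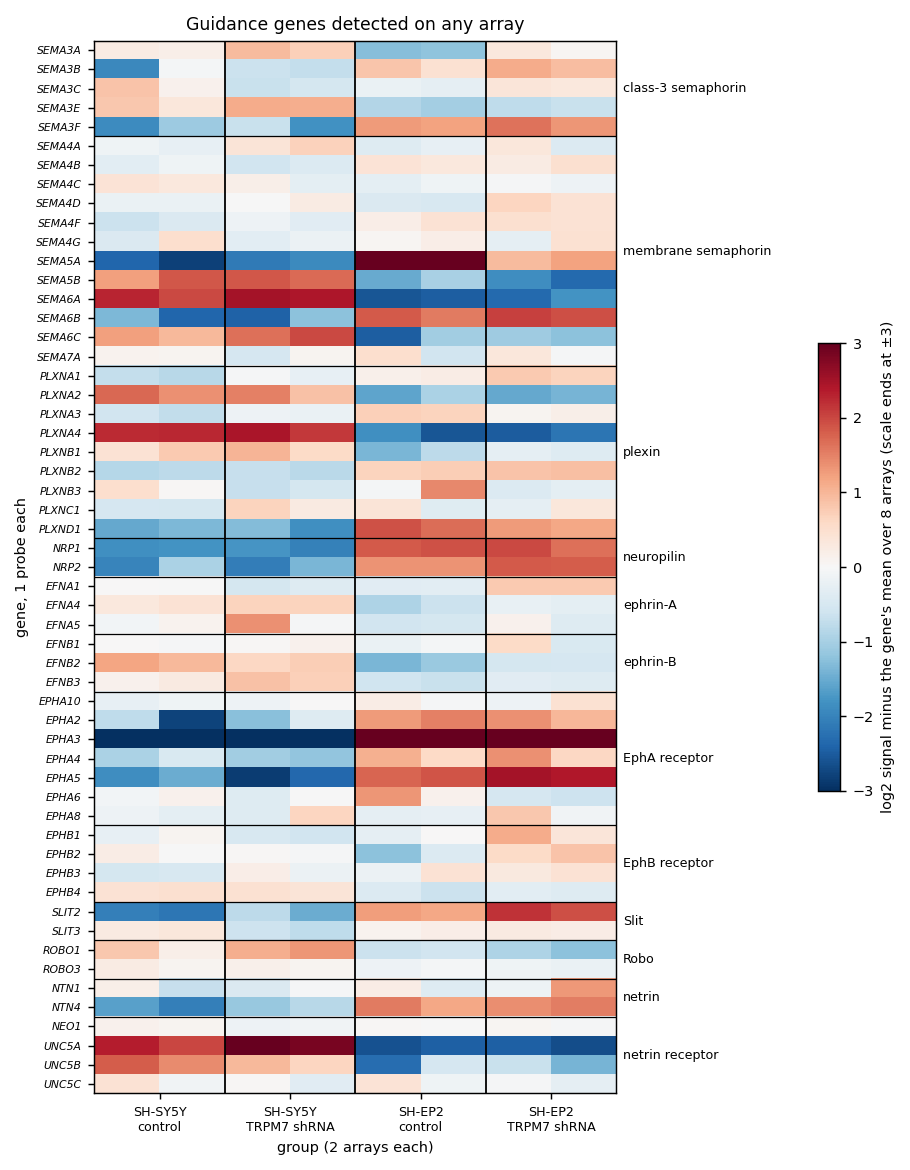
Rows are the 55 semaphorin, plexin, neuropilin, ephrin, Eph, Slit, Robo, netrin and netrin receptor symbols detected on at least 1 array, columns are the 8 arrays in their 4 groups, and colour is the log2 normalized signal minus the mean of that gene over the 8 arrays. Most strong colours divide the lines, as in EPHA3, SEMA5A, NRP1, SEMA6A and UNC5A, and the differences between TRPM7 shRNA and control arrays within a line are smaller except for SEMA5A in SH-EP2 cells.

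Most of the guidance genes called with TRPM7 shRNA were ligands. In SH-SY5Y cells 7 of the 72 were called, and 6 of these were ligands: SLIT2, SEMA3A and EFNB3 rose, and SLIT3, SEMA3C and EFNA1 fell. The receptor was PLXNA1, which rose. In SH-EP2 cells 7 were called, again 6 ligands and 1 receptor: EFNA1, EFNB2, SEMA3A, SEMA4D, SLIT2 and the receptor EPHB2 rose, and SEMA5A fell. The contrast was narrower at an unadjusted p under 0.05. There 11 of 34 ligands and 8 of 36 receptors passed in SH-SY5Y cells, and 10 and 8 in SH-EP2 cells. Of all 31426 symbols 3978 and 4393 passed in the 2 lines. Whether ligands and receptors differ in their response was not tested.

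These counts are read against all genes on the array. In SH-SY5Y cells 4 of the 72 were higher and 3 lower with TRPM7 shRNA, where 0.999% and 1.57% of all 31426 symbols were called higher and lower. In SH-EP2 cells 6 were higher and 1 lower, where 1.82% and 1.85% of all symbols were. Detected genes are called more often: among symbols detected on both arrays of at least 1 of the compared groups, 5.51% were called in SH-SY5Y cells and 8.17% in SH-EP2 cells, and 7 of 42 such members (16.7%) were called in each line. These shares are descriptions without a test, for members chosen with earlier results of these data known. The median difference over the 72 was 0.055 in SH-SY5Y and 0.13 in SH-EP2 cells, against 0.0034 and 0.010 over all symbols. For the 34 ligands the medians were 0.30 and 0.23, and for the 36 receptors they were -0.07 and 0.018.

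**Figure D2:**
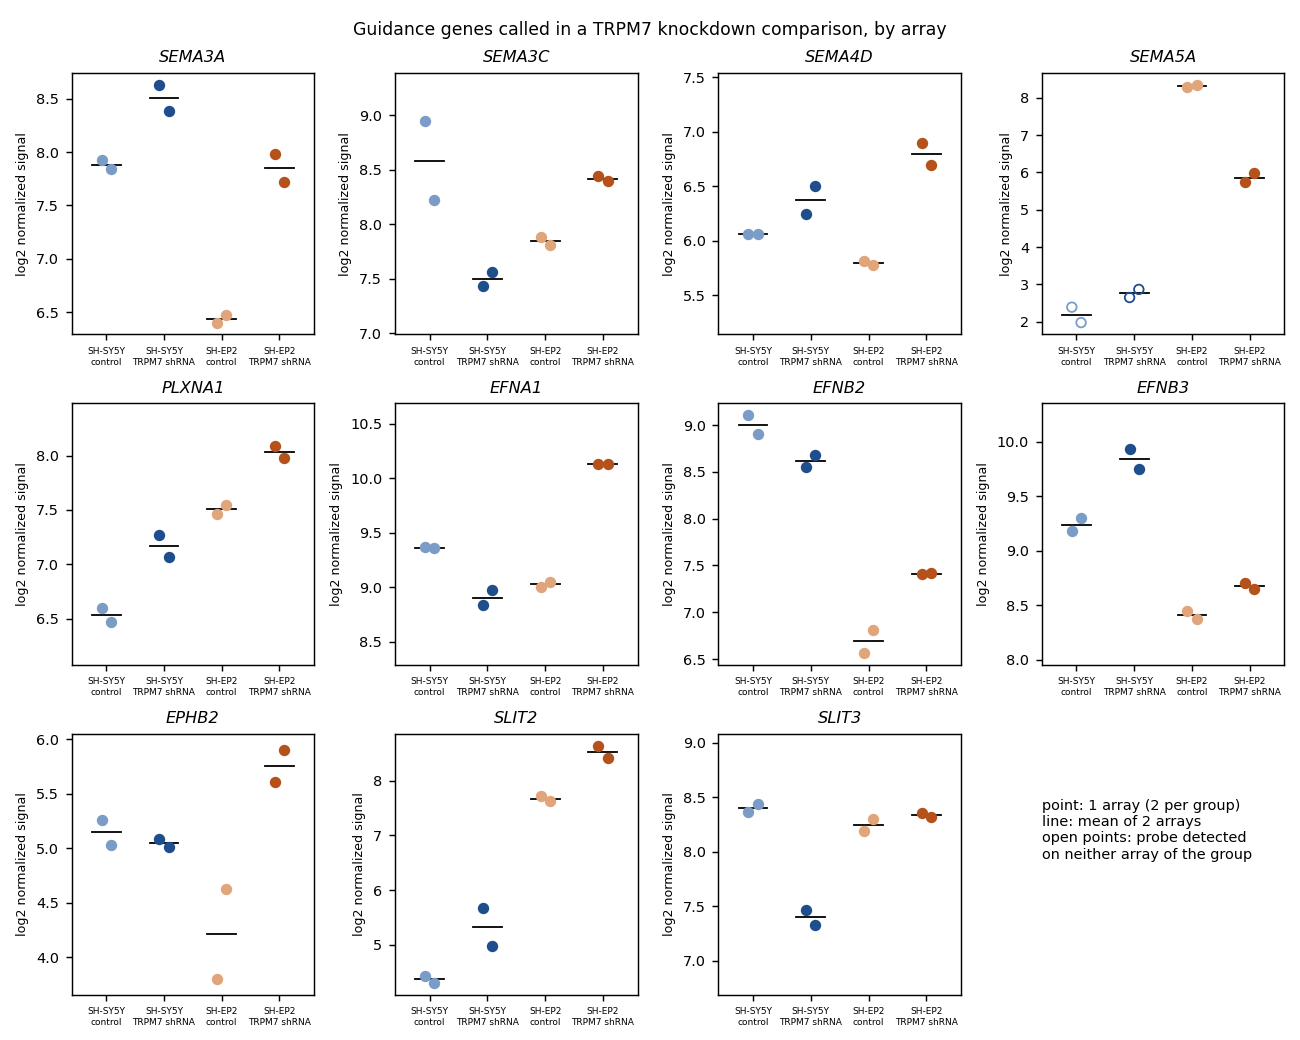
Each panel shows 1 gene called in a knockdown comparison, with the log2 normalized signal on the y axis, whose position and span differ between panels, and the 4 groups on the x axis. Points are single arrays (2 per group), lines are group means, and open points mark a probe detected on neither array of the group. SLIT2 and SEMA3A were higher on both TRPM7 shRNA arrays of each line, and EFNA1 was lower in SH-SY5Y and higher in SH-EP2 cells with TRPM7 shRNA.

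Slits are secreted repellents that bind Robo receptors. SLIT3 fell in SH-SY5Y cells: its signals were 8.36 and 8.44 on the control arrays and 7.46 and 7.33 on the TRPM7 shRNA arrays. This was a difference of -1.01 ± 0.12 (2.01-fold lower, adjusted p = 4.78e-05), and the groups did not overlap. In SH-EP2 cells SLIT3 read 8.19 and 8.30 on control and 8.36 and 8.32 on TRPM7 shRNA arrays. These did not overlap either, but the difference was small and not called (0.09 ± 0.12, adjusted p = 0.859). The effects in the lines differed by 1.10 ± 0.17 (SH-EP2 minus SH-SY5Y, interaction adjusted p = 0.0013).

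SLIT2 moved the other way in SH-SY5Y cells. Control arrays gave 4.43 and 4.30, near the lower end of the detected range, and TRPM7 shRNA arrays gave 5.68 and 4.98 (0.97 ± 0.21, 1.95-fold, adjusted p = 0.0165). In SH-EP2 cells, where SLIT2 was brighter, it rose from 7.72 and 7.62 to 8.65 and 8.41 (0.86 ± 0.21, 1.81-fold, adjusted p = 0.029). Both TRPM7 shRNA arrays lay above both control arrays in each line. The effects differed by -0.11 ± 0.30 (interaction adjusted p = 0.949), and by 0.40 with no background correction (interaction adjusted p = 0.0659). Without SH-SY5Y control replicate 2 or TRPM7 shRNA replicate 1 the SH-SY5Y difference was 0.90 (adjusted p = 0.105) or 0.61 (adjusted p = 0.274), and leaving out any 1 of the 4 SH-EP2 arrays ended the SH-EP2 call (differences 0.74 to 0.97). With neqc in place of the RMA background model the SH-SY5Y difference was 0.57 (adjusted p = 0.0588), and with no background correction it was 0.21 (adjusted p = 0.255). It also missed the threshold with normexp (0.30, adjusted p = 0.161) and with each line normalized and fitted alone (0.99, adjusted p = 0.172).

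The Robo receptors were not called in either knockdown comparison. ROBO1 read 6.05 and 5.43 on SH-SY5Y control arrays and 6.33 and 6.56 on TRPM7 shRNA arrays (0.71 ± 0.27, adjusted p = 0.275), without overlap. In SH-EP2 cells it read 4.59 and 4.66 on control and 4.33 and 4.01 on TRPM7 shRNA arrays (-0.46 ± 0.27, adjusted p = 0.551). The difference of these effects was not called (-1.16, interaction adjusted p = 0.202). ROBO3 was detected on all 8 arrays, between 6.70 and 7.16, whereas ROBO2, ROBO4 and SLIT1 were detected on none.

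As the 2 Slit genes moved in opposite directions in SH-SY5Y cells, the 250 bases before their RefSeq start sites are shown (GRCh38.p14), with those of EFNA1 and EFNB2, whose knockdown effects differed between the lines in the same direction. Each is written 5′ to 3′ in the orientation of the gene. Capitals mark the GC box GGGCGG, bound by SP1, and the E-box CAGGTG, bound by SNAI and ZEB repressors, each on either strand.
SLIT2 (chr4:20251655-20251904, plus strand): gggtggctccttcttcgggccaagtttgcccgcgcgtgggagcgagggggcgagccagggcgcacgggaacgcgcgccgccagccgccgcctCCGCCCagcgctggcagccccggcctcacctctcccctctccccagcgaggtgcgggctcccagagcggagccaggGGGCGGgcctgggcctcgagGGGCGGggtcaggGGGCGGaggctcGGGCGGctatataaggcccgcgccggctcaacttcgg
SLIT3 (chr5:169301140-169301389, minus strand): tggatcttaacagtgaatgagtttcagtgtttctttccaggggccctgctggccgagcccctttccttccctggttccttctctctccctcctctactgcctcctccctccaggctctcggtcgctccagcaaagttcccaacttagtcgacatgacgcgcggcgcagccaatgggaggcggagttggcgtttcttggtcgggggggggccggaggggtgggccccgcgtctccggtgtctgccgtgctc
EFNA1 (chr1:155127626-155127875, plus strand): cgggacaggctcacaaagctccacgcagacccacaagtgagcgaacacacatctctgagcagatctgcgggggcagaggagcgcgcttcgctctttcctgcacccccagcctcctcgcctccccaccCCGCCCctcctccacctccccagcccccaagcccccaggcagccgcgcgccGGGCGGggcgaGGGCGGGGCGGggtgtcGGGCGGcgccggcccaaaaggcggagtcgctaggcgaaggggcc
EFNB2 (chr13:106535663-106535912, minus strand): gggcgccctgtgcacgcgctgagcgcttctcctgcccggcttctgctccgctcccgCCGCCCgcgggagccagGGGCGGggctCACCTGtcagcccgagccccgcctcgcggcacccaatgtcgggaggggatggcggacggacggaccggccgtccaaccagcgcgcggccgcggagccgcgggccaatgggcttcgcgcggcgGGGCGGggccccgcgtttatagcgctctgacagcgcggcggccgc
The windows of SLIT2 and EFNA1 held 5 GC boxes each, overlapping in EFNA1, that of EFNB2 held 3 and that of SLIT3 held 0. Over all 27305 promoters in the table, 42.3% held at least 1 GC box, as did 45 of the 61 members with an entry (73.8%). An E-box of these letters was in EFNB2 among the 4 windows, in 17.5% of all promoters and in 9 of the 61 members (14.8%). SNAI2, whose product binds such E-boxes, fell in both lines with TRPM7 shRNA (by 2.77 in SH-SY5Y, adjusted p = 1.24e-08, and by 1.39 in SH-EP2, adjusted p = 6.7e-05), and its part in any of these differences was not tested. The letters are a description of the windows and do not show binding.

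Class-3 semaphorins are secreted ligands of neuropilin and plexin complexes. SEMA3A, the classical growth cone repellent, rose in both lines. Its signals in SH-SY5Y cells were 7.93 and 7.84 on control and 8.63 and 8.38 on TRPM7 shRNA arrays (0.62 ± 0.14, 1.54-fold, adjusted p = 0.0243). In SH-EP2 cells they were 6.40 and 6.47 on control and 7.99 and 7.72 on TRPM7 shRNA arrays (1.42 ± 0.14, 2.67-fold, adjusted p = 4.82e-06). The groups did not overlap in either line, and the larger difference in SH-EP2 cells did not pass the interaction test (0.79 ± 0.20, adjusted p = 0.0635). Without SH-SY5Y control replicate 1 or 2, or without TRPM7 shRNA replicate 1, the SH-SY5Y call was lost (differences 0.67, 0.58 and 0.50).

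SEMA3C, which acts on neural crest migration, fell in SH-SY5Y cells. It read 8.95 and 8.22 on control and 7.43 and 7.56 on TRPM7 shRNA arrays (-1.09 ± 0.17, 2.13-fold lower, adjusted p = 0.000721). The control arrays spread more than the shRNA arrays, but all lay above them, and without 1 array the difference was -1.45 to -0.73. In SH-EP2 cells it read 7.88 and 7.81 on control and 8.44 and 8.40 on TRPM7 shRNA arrays (0.57 ± 0.17, adjusted p = 0.0836), and this difference passed the threshold under 5 alternatives, among them each line normalized and fitted alone (adjusted p = 0.00113). The effects of the knockdown on SEMA3C differed between the lines by 1.66 ± 0.24 (interaction adjusted p = 0.000472). SEMA3B, SEMA3E and SEMA3F were not called in a knockdown comparison, and SEMA3D and SEMA3G were detected on no array.

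The membrane-bound semaphorins SEMA5A and SEMA4D were called in SH-EP2 cells. SEMA5A, which carries thrombospondin repeats and can attract or repel axons, fell from 8.29 and 8.34 on control arrays to 5.73 and 5.98 on TRPM7 shRNA arrays (-2.46 ± 0.29, 5.49-fold lower, adjusted p = 3.37e-05). It had the largest fitted knockdown difference of the 72 in either line. A second, dimmer SEMA5A probe fell too, from 5.15 and 5.88 to 4.002 and 2.98 (-2.02 ± 0.52, adjusted p = 0.0354), although it was detected on 1 of the TRPM7 shRNA arrays. In SH-SY5Y cells neither probe was detected on any of the 4 arrays. The interaction was called (-3.03 ± 0.42, adjusted p = 0.000279), but it sets the fall in SH-EP2 cells against a line in which no level was measured.

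SEMA4D, the ligand of plexin B1, rose in SH-EP2 cells from 5.82 and 5.78 to 6.90 and 6.69 (1.00 ± 0.19, adjusted p = 0.00387), and without SH-EP2 TRPM7 shRNA replicate 1 the difference was 0.90 (adjusted p = 0.0906). Its signals in SH-SY5Y cells were 6.06 and 6.06 on control and 6.24 and 6.51 on TRPM7 shRNA arrays (0.31 ± 0.19, adjusted p = 0.604), and the interaction was not called (0.69 ± 0.27, adjusted p = 0.342). Of the receptors of semaphorins, PLXNA1, which signals for neuropilin-bound semaphorins, was called in SH-SY5Y cells: it rose from 6.60 and 6.47 to 7.27 and 7.07 (0.64 ± 0.15, 1.55-fold, adjusted p = 0.025). In SH-EP2 cells PLXNA1 read 7.47 and 7.54 on control and 8.09 and 7.98 on TRPM7 shRNA arrays (0.53 ± 0.15, adjusted p = 0.061). Groups did not overlap in either line, and the effects differed by -0.10 ± 0.21 (interaction adjusted p = 0.925). With each line normalized and fitted alone the SH-SY5Y difference was 0.62 and missed the threshold (adjusted p = 0.102). Without SH-SY5Y control replicate 2 or TRPM7 shRNA replicate 1, the SH-SY5Y difference was 0.57 (adjusted p = 0.143) or 0.53 (adjusted p = 0.217), and the SH-EP2 difference passed the threshold under 8 alternatives. The neuropilins were not called, with NRP1 between 6.75 and 7.01 on the SH-SY5Y arrays and between 10.43 and 10.76 on the SH-EP2 arrays.

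Ephrins were called in both lines, and 2 of them behaved differently by line. EFNA1, a ligand anchored in the membrane that binds EPHA2 among other EphA receptors, read 9.37 and 9.36 on SH-SY5Y control and 8.84 and 8.97 on TRPM7 shRNA arrays (-0.46 ± 0.10, 1.37-fold lower, adjusted p = 0.0135). In SH-EP2 cells it rose from 9.01 and 9.05 to 10.14 and 10.13 (1.11 ± 0.10, 2.15-fold, adjusted p = 8.66e-07). The knockdown effects differed by 1.56 ± 0.14 (interaction adjusted p = 1.36e-06). A second EFNA1 probe, detected on all 8 arrays, read 6.01 and 6.20 on SH-SY5Y control and 5.51 and 5.54 on TRPM7 shRNA arrays (-0.58 ± 0.18, adjusted p = 0.126), and 6.44 and 6.35 on SH-EP2 control and 7.48 and 7.50 on TRPM7 shRNA arrays (1.10 ± 0.18, adjusted p = 0.000965). Its interaction was 1.68 ± 0.25 (adjusted p = 0.000781). The fall in SH-SY5Y cells was the less firm of the 2 changes: it was -0.32 with median scaling (adjusted p = 0.239) and -0.46 with each line alone (adjusted p = 0.0511), and it missed the threshold without SH-SY5Y control replicate 1 (-0.45, adjusted p = 0.0511), control replicate 2 (-0.46, adjusted p = 0.0587) or TRPM7 shRNA replicate 1 (-0.39, adjusted p = 0.125).

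EFNB2, a transmembrane ephrin that signals into its own cell when bound, rose in SH-EP2 cells from 6.57 and 6.81 to 7.41 and 7.42 (0.72 ± 0.14, 1.65-fold, adjusted p = 0.00326). In SH-SY5Y cells its signals were 9.10 and 8.90 on control and 8.55 and 8.68 on TRPM7 shRNA arrays (-0.39 ± 0.14, adjusted p = 0.204), and the effects differed by 1.11 ± 0.19 (interaction adjusted p = 0.00266). Without SH-EP2 control replicate 1 the SH-EP2 difference was 0.60 (adjusted p = 0.0725). EFNB3, another transmembrane ephrin, rose in SH-SY5Y cells from 9.18 and 9.30 to 9.93 and 9.75 (0.60 ± 0.11, 1.52-fold, adjusted p = 0.00275). It read 8.45 and 8.37 on SH-EP2 control and 8.71 and 8.64 on TRPM7 shRNA arrays (0.26 ± 0.11, adjusted p = 0.272), with no call for the interaction (-0.34 ± 0.15, adjusted p = 0.446). Without SH-SY5Y TRPM7 shRNA replicate 1 the EFNB3 difference was 0.51 (adjusted p = 0.0592).

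Among Eph receptor kinases EPHB2, which binds B-class ephrins, was called in SH-EP2 cells. Control arrays read 3.80 and 4.62 and TRPM7 shRNA arrays 5.61 and 5.91 (1.55 ± 0.30, 2.92-fold, adjusted p = 0.0041), without overlap but with a wide spread of the control arrays. In SH-SY5Y cells EPHB2 read 5.26 and 5.03 on control and 5.09 and 5.01 on TRPM7 shRNA arrays (-0.10 ± 0.30, adjusted p = 0.954), with overlap. The interaction was not called (1.64 ± 0.42, adjusted p = 0.0605). Without SH-EP2 control replicate 1 the SH-EP2 difference was 1.14 (adjusted p = 0.0913), and without TRPM7 shRNA replicate 2 it was 1.41 (adjusted p = 0.0851). A second EPHB2 probe, detected on neither SH-EP2 control array and both TRPM7 shRNA arrays, was at least 1.5-fold higher with TRPM7 shRNA (adjusted p = 0.181).

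Netrins and their receptors were not called in a knockdown comparison. NTN1 was detected on 1 of the 8 arrays, a SH-EP2 TRPM7 shRNA array, and DCC on none. NEO1, a receptor of netrins and repulsive guidance molecules, read 8.64 and 8.61 on SH-SY5Y control and 8.37 and 8.42 on TRPM7 shRNA arrays (-0.23 ± 0.11, adjusted p = 0.455). In SH-EP2 cells it read 8.57 and 8.52 on control and 8.58 and 8.48 on TRPM7 shRNA arrays, which overlapped.

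**Figure D3:**
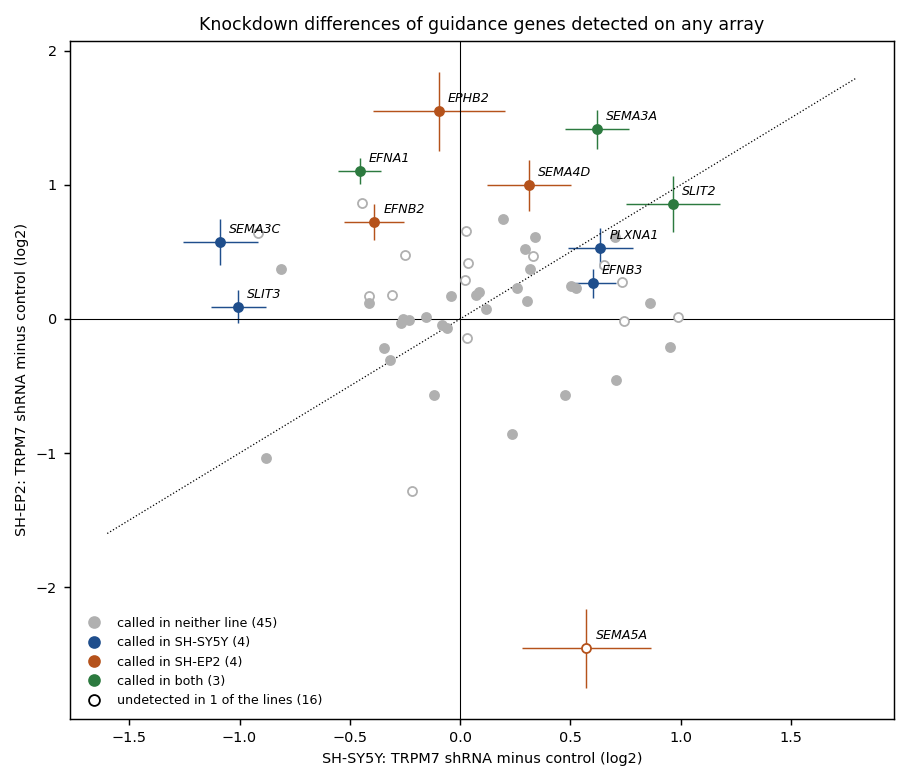
The fitted difference between TRPM7 shRNA and control (log2) in SH-SY5Y cells (x axis) and SH-EP2 cells (y axis) is shown for the 56 symbols detected on at least 1 array, with standard errors for called genes and a dotted line of equal differences. Open points (16) mark genes undetected on all arrays of 1 line, whose position on that axis is no measured level. SLIT2 and PLXNA1 lie near the line of equal differences on this RMA-corrected scale. EFNA1, EFNB2, SEMA3C and SLIT3, which passed the interaction test, lie to the left of that line.

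Differences between the lines' responses were called for 5 of the 72, all ligands: EFNA1, EFNB2, SEMA3C and SLIT3 were shifted upwards in SH-EP2 relative to SH-SY5Y cells, and SEMA5A downwards. As SEMA5A was undetected on all SH-SY5Y arrays, its call sets a fall in SH-EP2 cells against no measured level. At an unadjusted p under 0.05 10 of 34 ligands and 7 of 36 receptors passed, and 3580 of all 31426 symbols. Of all 31426 symbols 0.993% had a higher and 0.786% a lower effect in SH-EP2 cells. Among symbols detected on both arrays of at least 1 group 3.52% were called, against 5 of 48 such members (10.4%). The median of the interaction was 0.073 over the 72 and 0.016 over all symbols. Apart from that of SEMA5A in SH-EP2 cells, the calls in the knockdown comparisons and the interaction rest on a spread estimate that follows signal intensity. With 1 prior spread for all probes limma called 0 of the 72 in SH-SY5Y cells (17 at an unadjusted p under 0.05), 1 in SH-EP2 cells, SEMA5A, and 0 for the interaction (16 at an unadjusted p under 0.05). Without background correction the differences were compressed and the SH-SY5Y call of SLIT2 was lost, whereas the following calls stayed: in SH-EP2 cells SEMA5A was at -1.33, SEMA3A at 0.79, SEMA4D at 0.41, EFNB2 at 0.39 and EPHB2 at 0.34, and in SH-SY5Y cells PLXNA1 was at 0.32.

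Of 40 genes that relay guidance signals to the cytoskeleton, 2 rose in SH-SY5Y cells and none fell, and in SH-EP2 cells 3 rose and 4 fell. Most of the 40 were detected (37 on at least 1 array), and 2 of 40 is near the 5.51% called among detected symbols in SH-SY5Y cells. In SH-EP2 cells the 7 called stand beside 8.17% of detected symbols, and the median difference of the list was -0.12 there and 0.034 in SH-SY5Y cells. Genes of this list, the other cues and the markers were not run under the alternatives or with arrays left out. Their other probes were not examined either. SRGAP3, a GTPase-activating protein that binds Robos, rose in both lines. It read 5.47 and 5.17 on SH-SY5Y control and 6.36 and 6.38 on TRPM7 shRNA arrays (1.05 ± 0.24, adjusted p = 0.0238), and 4.64 and 4.75 on SH-EP2 control and 5.39 and 5.87 on TRPM7 shRNA arrays (0.94 ± 0.24, adjusted p = 0.0397). DPYSL3, a collapsin response mediator protein that binds tubulin and actin, rose by 0.28 ± 0.07 (adjusted p = 0.0415) in SH-SY5Y and by 0.53 ± 0.07 (adjusted p = 0.000112) in SH-EP2 cells. LIMK2, a kinase of cofilin, rose in SH-EP2 cells by 1.01 ± 0.23 (adjusted p = 0.0155).

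The 4 effectors that fell in SH-EP2 cells were MICAL2, CRMP1, FYN and ENAH. MICAL2, which oxidises actin, read 6.39 and 6.75 on control and 5.11 and 4.95 on TRPM7 shRNA arrays (-1.54 ± 0.40, adjusted p = 0.038). CRMP1, a mediator of semaphorin signals, was detected on both SH-EP2 control arrays and on neither TRPM7 shRNA array, and was at least 1.3-fold lower (adjusted p = 0.00016). The kinase FYN fell by 0.89 ± 0.15 (adjusted p = 0.00163) and the actin regulator ENAH by 0.72 ± 0.16 (adjusted p = 0.0151). Of these 40 genes CRMP1 alone was called in the interaction (adjusted p = 0.00441), for which no size is given because it rests on SH-EP2 TRPM7 shRNA arrays without a measured level.

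Of 15 other cues and adhesion receptors, 1 was called in each knockdown comparison, which is near the shares of 5.51% and 8.17% among detected symbols. The median difference of this list was 0.21 in both lines. FLRT3, a leucine-rich repeat protein that binds UNC5 receptors, rose in SH-SY5Y cells from 7.50 and 7.55 to 8.69 and 8.73 (1.19 ± 0.29, adjusted p = 0.0366), and it was not detected in SH-EP2 cells. RGMB, a ligand of neogenin, fell in SH-EP2 cells from 6.16 and 6.15 to 5.13 and 5.31 (-0.94 ± 0.25, adjusted p = 0.0478). The adhesion molecule CNTN1 was called in the interaction (adjusted p = 0.00846), with no size given because it was undetected on the SH-EP2 TRPM7 shRNA arrays. It read 5.996 and 6.24 on SH-SY5Y control and 7.40 and 7.22 on TRPM7 shRNA arrays (1.19 ± 0.31, adjusted p = 0.0507), and was at least 1.19-fold lower with TRPM7 shRNA in SH-EP2 cells (adjusted p = 0.0833). Of the 10 noradrenergic markers 3 fell in SH-SY5Y cells with TRPM7 shRNA (DBH by 1.20, STMN2 by 0.58 and ISL1 by 0.45). The median log2 signal of the list was 11.05 on the SH-SY5Y TRPM7 shRNA arrays. In SH-EP2 cells PHOX2A, DBH, TH, CHGA and STMN2 were undetected. There 2 markers were called lower, GATA2 (adjusted p = 0.0171) and CHGA (adjusted p = 0.0344). No size is given for CHGA, as it had no measured level in SH-EP2 cells. Of the 10 mesenchymal markers 2 fell in SH-SY5Y cells, and 1 rose and 4 fell in SH-EP2 cells, with medians of 5.14 and 10.89 on the TRPM7 shRNA arrays. Of detected symbols 5.51% and 8.17% were called in the 2 lines, either direction. The part of these shifts in the guidance differences was not tested.

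The control cells of the 2 lines differed in 39 of the 72 symbols. SH-EP2 cells had higher signals of EPHA3, EPHA5, EPHA2, SEMA5A, SEMA6B, NRP1, NRP2, PLXND1, SLIT2 and NTN4, and SH-SY5Y cells of UNC5A, UNC5B, SEMA6A, SEMA6C, SEMA5B, SEMA3E, PLXNA4, PLXNA2, PLXNB1 and EFNB2. Of the 72 symbols 19 were higher and 20 lower in SH-EP2 control cells, where 14.2% and 15.9% of all 31426 symbols were. Among symbols detected on both arrays of at least 1 line 61.8% were called, against 38 of 46 such members (82.6%). The median difference was -0.045 over the 72 and -0.019 over all symbols. The sizes of these differences, the "at least" folds included, hold for the RMA-corrected scale. With no background correction the log2 difference was 2.76 for EPHA3, 1.99 for SEMA5A, 0.84 for EPHA2, -0.54 for PLXNA2 and -0.96 for UNC5A, which is less than those folds where one is given, although the direction and the call stayed. Genes far above background moved less, with NRP1 at 2.85 and EFNB2 at -1.53. UNC5D was called as well (adjusted p = 0.0368), although neither line detected it, and no fold is given for it, and UNC50, which is no netrin receptor, was higher in SH-EP2 cells by 0.39.

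**Figure D4:**
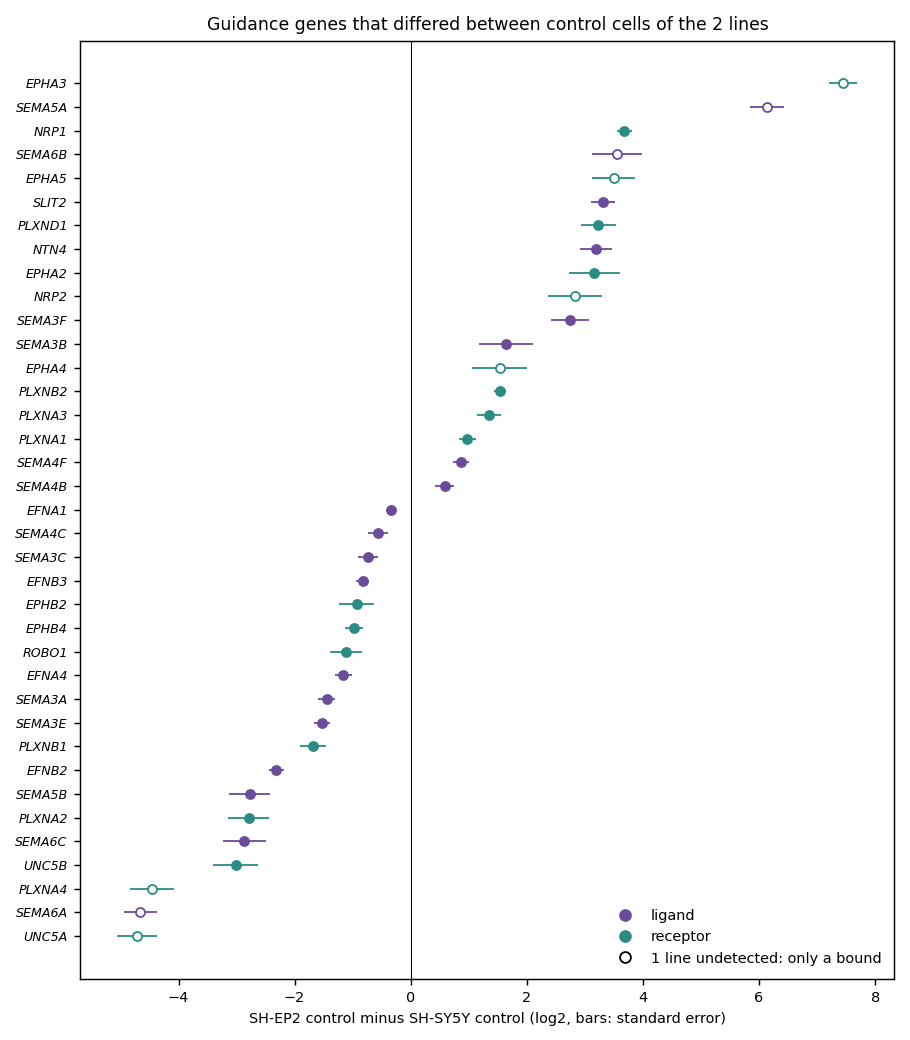
Fitted log2 difference between SH-EP2 and SH-SY5Y control cells (x axis, bars are standard errors) for the 37 ligands and receptors called in this comparison and detected in at least 1 of the lines, one row each. Open points mark genes undetected in 1 line, for which the position is not a measured difference. The 18 genes to the right of 0 include EPHA2, EPHA3, EPHA4 and EPHA5, and the 19 to the left include EPHB2, EPHB4 and 4 ephrins.

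Eph receptors of the A class were among the genes brighter in SH-EP2 cells, and the ephrins called were all lower there. EPHA3, a receptor of A-class ephrins, read 9.22 and 9.18 on SH-EP2 control arrays and was undetected on both SH-SY5Y control arrays, so that it was at least 65.8-fold higher in SH-EP2 cells (adjusted p = 2.57e-15). Of its 2 other probes, 1 was undetected on the control arrays of both lines and 1 was detected on 1 of the SH-EP2 control arrays (at least 1.2-fold higher, adjusted p = 0.00731). EPHA5 read 5.83 and 5.99 in SH-EP2 cells and was undetected in SH-SY5Y cells (at least 6.73-fold, adjusted p = 2.06e-07). The other EPHA5 probes were undetected on every array (adjusted p = 0.528 and 0.00899), so that they measured no level. EPHA2, an ephrin-A1 receptor often expressed in epithelial cells, read 6.70 and 6.92 on SH-EP2 and 4.65 and 2.63 on SH-SY5Y control arrays, the latter not detected on 1 of them (3.17 ± 0.43, adjusted p = 6.06e-06). Of 9 EphA receptors 4 were higher in SH-EP2 cells and none lower, and of 5 EphB receptors none was higher and 2 were lower, and a difference between the classes was not tested. EFNB2, the B-class ligand, read 9.10 and 8.90 on SH-SY5Y and 6.57 and 6.81 on SH-EP2 control arrays (-2.31 ± 0.14, adjusted p = 2.93e-11). EFNA1, EFNA4 and EFNB3 were lower in SH-EP2 cells by 0.33, 1.16 and 0.83. The other EFNA1 probe went the other way and was not called (0.29 ± 0.18, adjusted p = 0.314). The other EFNA4 probe was lower in SH-EP2 cells too (-1.47 ± 0.17, adjusted p = 5.38e-07).

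Semaphorin ligands went both ways. SEMA5A, at 8.29 and 8.34 on SH-EP2 control arrays, was at least 35.7-fold higher than in SH-SY5Y cells, where it was undetected (adjusted p = 1.24e-12). SEMA6B read 6.03 and 5.76 in SH-EP2 cells and was at least 6.67-fold higher (adjusted p = 1.35e-06). SEMA6A, its relative, showed the opposite: 7.16 and 6.86 on SH-SY5Y control arrays and undetected in SH-EP2 cells, at least 13.7-fold lower there (adjusted p = 7.38e-11). Both are transmembrane ligands of A-class plexins. SEMA6C read 6.15 and 5.89 on SH-SY5Y and 2.44 and 3.88 on SH-EP2 control arrays (-2.87 ± 0.36, adjusted p = 2.48e-06), and SEMA5B read 5.67 and 6.30 against 2.94 and 3.48 (-2.78 ± 0.35, adjusted p = 2.37e-06), each detected on 1 of the SH-EP2 control arrays. The secreted SEMA3E read 9.18 and 8.70 on SH-SY5Y and 7.48 and 7.35 on SH-EP2 control arrays (-1.53 ± 0.14, adjusted p = 2.53e-08). SEMA3A and SEMA3C were lower in SH-EP2 control cells too, by 1.45 and 0.74. The other SEMA5A probe was at least 5.12-fold higher in SH-EP2 cells (adjusted p = 2.06e-05). Other probes of SEMA5B (adjusted p = 0.282) and SEMA3E (adjusted p = 0.616) were undetected on every array and not called. Of the other SEMA6B probes, 1 was undetected on every array (adjusted p = 0.723). The remaining SEMA6B probe was detected on 1 of the SH-EP2 control arrays and not called (adjusted p = 0.253).

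Receptors of semaphorins differed in the same comparison. NRP1, the neuropilin that binds SEMA3A, read 6.94 and 6.98 on SH-SY5Y and 10.61 and 10.67 on SH-EP2 control arrays (3.68 ± 0.13, 12.8-fold, adjusted p = 5.29e-15). NRP2 read 4.87 and 4.87 in SH-EP2 cells and was undetected in SH-SY5Y cells (at least 3.28-fold, adjusted p = 7.24e-05). PLXND1, the receptor of SEMA3E, read 3.15 and 3.34 on SH-SY5Y and 6.60 and 6.36 on SH-EP2 control arrays (3.23 ± 0.31, adjusted p = 4.41e-08), whereas its ligand SEMA3E was the lower in SH-EP2 cells. PLXNA4, a receptor of class-3 and class-6 semaphorins, read 6.32 and 6.33 on SH-SY5Y control arrays and was undetected in SH-EP2 cells (at least 8.55-fold lower, adjusted p = 1.02e-08). PLXNA2 read 6.08 and 5.72 against 2.79 and 3.42, detected on 1 of the SH-EP2 control arrays (-2.79 ± 0.36, adjusted p = 2.84e-06). PLXNB1, which binds SEMA4D, read 6.70 and 7.06 against 4.91 and 5.48 (-1.68 ± 0.22, adjusted p = 4.56e-06). The arrays of the lines did not overlap in any of these genes. As the genes were taken for their large differences, this adds nothing to the calls. Another NRP1 probe gave 2.27 ± 0.21 (adjusted p = 3.44e-08). Other probes had the same direction for NRP2 (at least 1.74-fold, adjusted p = 0.0131) and PLXNA4 (at least 1.46-fold lower, adjusted p = 0.0119). A further NRP2 probe, detected on 1 of the SH-EP2 control arrays, was not called (adjusted p = 0.236). A further PLXNA4 probe was undetected on every array and not called (adjusted p = 0.463). The other PLXNA2 probe, detected on 1 of the SH-SY5Y control arrays, was not called either (adjusted p = 0.323).

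SLIT2 and a Robo receptor differed in opposite directions. SLIT2 was higher in SH-EP2 than in SH-SY5Y control cells by 3.31 ± 0.21 (9.91-fold, adjusted p = 1.16e-10), while SLIT3 differed by -0.15 ± 0.12 (adjusted p = 0.46). ROBO1 was lower in SH-EP2 cells by 1.11 ± 0.27 (adjusted p = 0.00318), but the 2 other ROBO1 probes were undetected, the mean over the 3 probes gave -0.26 (adjusted p = 0.671), and without SH-SY5Y control replicate 1 the difference was -0.81 (adjusted p = 0.0766).

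Of the UNC5 netrin receptors, which mediate repulsion, UNC5A and UNC5B were brighter in SH-SY5Y cells. UNC5A read 6.61 and 6.26 on SH-SY5Y control arrays and was undetected in SH-EP2 cells (at least 9.23-fold lower, adjusted p = 8.65e-10). UNC5B read 7.47 and 7.08 against 3.36 and 5.15, a wide spread in SH-EP2 cells that did not reach the SH-SY5Y arrays (-3.02 ± 0.39, adjusted p = 2.97e-06), and a second UNC5B probe gave -2.14 ± 0.33 (adjusted p = 2.51e-05). NTN4, a netrin of basement membranes, read 3.57 and 3.13 on SH-SY5Y control arrays, detected on 1 of them, and 6.74 and 6.34 on SH-EP2 control arrays (3.19 ± 0.27, adjusted p = 8.25e-09). The other NTN4 probe was undetected on every array and not called (adjusted p = 0.113). NEO1 read between 8.52 and 8.64 in both control lines (-0.08 ± 0.11, adjusted p = 0.701), and UNC5C, detected on all 8 arrays at 3.18 to 3.95, was not called between the lines (-0.015 ± 0.45, adjusted p = 0.989).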

How the data were processed

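RNA of 8 samples was hybridised to Illumina HT-12 v4 arrays. The authors extracted intensity values and detection p-values in GenomeStudio 2011.1 (per the labels), and the deposited signal intensities were not normalized between arrays and are on a linear scale. The deposited detection p-value of each probe was used for detection (p under 0.05). The study's methods normalize by Robust-Multi-Array and name no test.

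From these, the RMA background was removed, the 8 arrays were quantile normalized on the linear scale, and log2 values were taken without a filter. Groups came from the cell line and shRNA in the labels. In R 4.3.3, limma 3.58.1 (lmFit on 4 group means, eBayes with intensity trend) tested TRPM7 shRNA against control in each line, the difference of these (interaction) and the control lines, two-sided, with Benjamini-Hochberg adjustment over 47322 probes. The procedure was tested on simulated data in which the spread followed signal intensity, so that this test could not check the intensity trend. No fold is given where both groups were undetected. Where 1 was undetected on both arrays, its level on each array was taken as the higher of its own signal and the lowest signal among detected probes, which gives the "at least" fold.

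Members and gene lists were chosen with earlier results of these data known. Values on every array are given for members called in a knockdown comparison or the interaction, for the 10 called members with the largest fitted difference in each direction between control lines whose brighter group was detected, and for SLIT2, ROBO1, ROBO2, NTN1, DCC and NEO1, of which undetected ones are given by detection. Of the further lists (40 guidance effectors, 16 other cues with 15 on the array), called genes are named. Of the noradrenergic markers, 1 is not reported singly here. Promoters are from RefSeq (GRCh38.p14), with entries for 61 of the 72 symbols. As alternatives the background was treated by neqc (offset 16), by normexp (offset 50) or not at all, arrays were scaled by their medians, a probe had to be detected on 2 or more arrays, the trend was dropped, a replicate block was added, probes of a gene were averaged, each line was fitted alone, and single arrays were left out. A group reduced to 1 array is then taken to have the spread of the rest.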

Additional observations from a re-analysis of the deposited data

Results flagged for a closer look

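The effect of TRPM7 shRNA differed between the 2 lines by the interaction test for 5 guidance ligands. The SH-EP2 effect minus the SH-SY5Y effect on the log2 scale was 1.56 for EFNA1, 1.11 for EFNB2, 1.66 for SEMA3C and 1.10 for SLIT3. It was -3.03 for SEMA5A, which was undetected on all SH-SY5Y arrays.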

How the results depend on the processing

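The number of arrays, 2 a group, limits precision, and 16 of the 72 symbols were detected on no array. Of the alternatives, eBayes without the intensity trend moved the counts most: guidance genes called went from 7 to 0 in SH-SY5Y cells, from 7 to 1 in SH-EP2 cells and from 5 to 0 in the interaction. In SH-SY5Y cells 11 were called with no background correction. In SH-EP2 cells 11 were called with normexp, with no background correction and with each line alone. Leaving out single arrays gave 2 to 7 calls in SH-SY5Y cells (2 without TRPM7 shRNA replicate 1, 3 without control replicate 2), 4 to 9 in SH-EP2 cells (4 without control replicate 1), 5 to 7 for the interaction and 31 to 39 between control lines. The other alternatives stayed within 1.5 times of each count. For single genes, 911 values kept direction and side of the threshold, 47 lost and 16 gained a call and 11 turned sign, none of these called. The SLIT2 interaction was 0.23 with neqc, 0.39 with normexp and 0.40 with no background correction (adjusted p = 0.0659). With single arrays left out it was -0.45 to 0.25 (0.0041 without SH-EP2 TRPM7 shRNA replicate 2, 0.25 without SH-SY5Y TRPM7 shRNA replicate 1). The PLXNA1 interaction was 0.0054 with normexp and 0.028 with no background correction. EPHB2 in SH-SY5Y cells was 0.085 with median scaling and -0.21 to 0.017 with single arrays left out (0.017 without control replicate 1). NEO1 in SH-EP2 cells was -0.060 to 0.042 with single arrays left out (0.017 without control replicate 1, 0.042 without TRPM7 shRNA replicate 2). The cause of these changes was not tested. Same-numbered arrays did not deviate together (r = -0.111 in SH-SY5Y and -0.0045 in SH-EP2 cells), and with a replicate block 7, 7, 5 and 39 guidance genes were called in the 4 comparisons.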
